A study of Bos taurus with 18 samples.

Results

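Stroma close to follicles was compared with interstitial stroma of the cow ovary, with 4 arrays of each among 18 arrays in all. Both are connective tissue of the ovarian cortex, and the sample titles alone set which arrays belong to which. Ovaries were collected at an abattoir from non-pregnant Bos taurus cows, 1 ovary per animal. Per the labels, stroma was cut out with a laser microscope from 10 µm sections of cortex stained with cresyl violet, and tissue of different animals was pooled for an array. How many animals made up a pool, and whether pools shared animals, is not given in the sources used here, so the p-values are too small if pools of 1 compartment shared animals. The remaining arrays held tunica albuginea, a dense collagenous sheet just beneath the surface epithelium, also laser captured (4 arrays), and theca, the hormone-producing layer of the follicle wall, dissected from healthy follicles under 5 mm in single animals (6 arrays). No group carried a treatment or an altered gene. All 26773 transcript clusters of the array, each summarising the probes of 1 transcript region, were tested, and 18457 of them carried 1 gene symbol.

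The ovarian cortex holds the reserve of small follicles, each an oocyte wrapped in a few granulosa cells, set in a stroma of spindle-shaped fibroblast-like cells, vessels and immune cells. As a follicle grows, stroma around it gives rise to the theca, which in antral follicles carries the receptor for luteinising hormone and makes androgens, and is supplied by its own capillary net. The comparison asked what sets stroma beside follicles apart from stroma between them, and whether genes of the theca were already higher there.

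Both compartments had the transcripts of ovarian stroma at high signal. DCN, the matrix proteoglycan decorin, lay between 11.1 and 11.3 in stroma close to follicles and between 11.1 and 11.5 in interstitial stroma on the log2 scale of the deposited values, on which a difference of 1 is 2-fold. NR2F2, a transcription factor of ovarian stroma, lay between 8.9 and 9.5 in stroma close to follicles and between 9.2 and 9.5 in interstitial stroma. Both genes were looked at as a check of the tissue after their values were seen. The median cluster had a signal of 4.1 on every array, values at or below it can be background, and a difference from such a value can understate the true one.

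The third array of stroma close to follicles stood nearer to interstitial stroma than to its own group. Its correlation over all clusters was 0.957 to 0.960 with the other arrays of stroma close to follicles and 0.965 to 0.968 with those of interstitial stroma. The fourth array of stroma close to follicles leaned the same way (0.957 to 0.960 within its group, 0.957 to 0.965 with interstitial stroma). On the first principal component of the 8 arrays, with 22.9% of the variance, stroma close to follicles had scores of 33.6, 45.5, -14.5 and 12.4 for replicates 1 to 4, against -10.9, -21.7, -11.5 and -33.0 in interstitial stroma. The label of the third array was kept, and results are given with it and, where it matters, without it.

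Stroma close to follicles had higher signals of 9 genes, among them MAEL, SOHLH2 and RBM46, known from germ cells, and the adhesion molecules EPCAM and CDH7. At an adjusted p below 0.05 (limma, Benjamini-Hochberg over all clusters), 9 clusters were called, which is 0.0336% of those tested. All 9 were higher in stroma close to follicles, each by at least 2-fold, and their compartments did not overlap on any array. None was lower (0%), while at an unadjusted p below 0.05 there were 1149 higher (4.29%) and 1026 lower (3.83%). The calls depended on the fit: limma made 0 when the spread came from the 12 laser-captured arrays (2069 at an unadjusted p below 0.05) or from the 8 stroma arrays alone (2083). Leaving out replicate 1, 2, 3 or 4 gave 2, 0, 152 or 14 calls for stroma close to follicles and 2, 0, 29 or 0 calls for interstitial stroma. None of the 9 genes that had passed was among the 2 calls without replicate 1 of stroma close to follicles. The 9 genes were higher in stroma close to follicles, by at least 0.89, under every setting that tested them; removal of the 40% dimmest clusters left 4 of the 9.

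**Figure D1:**
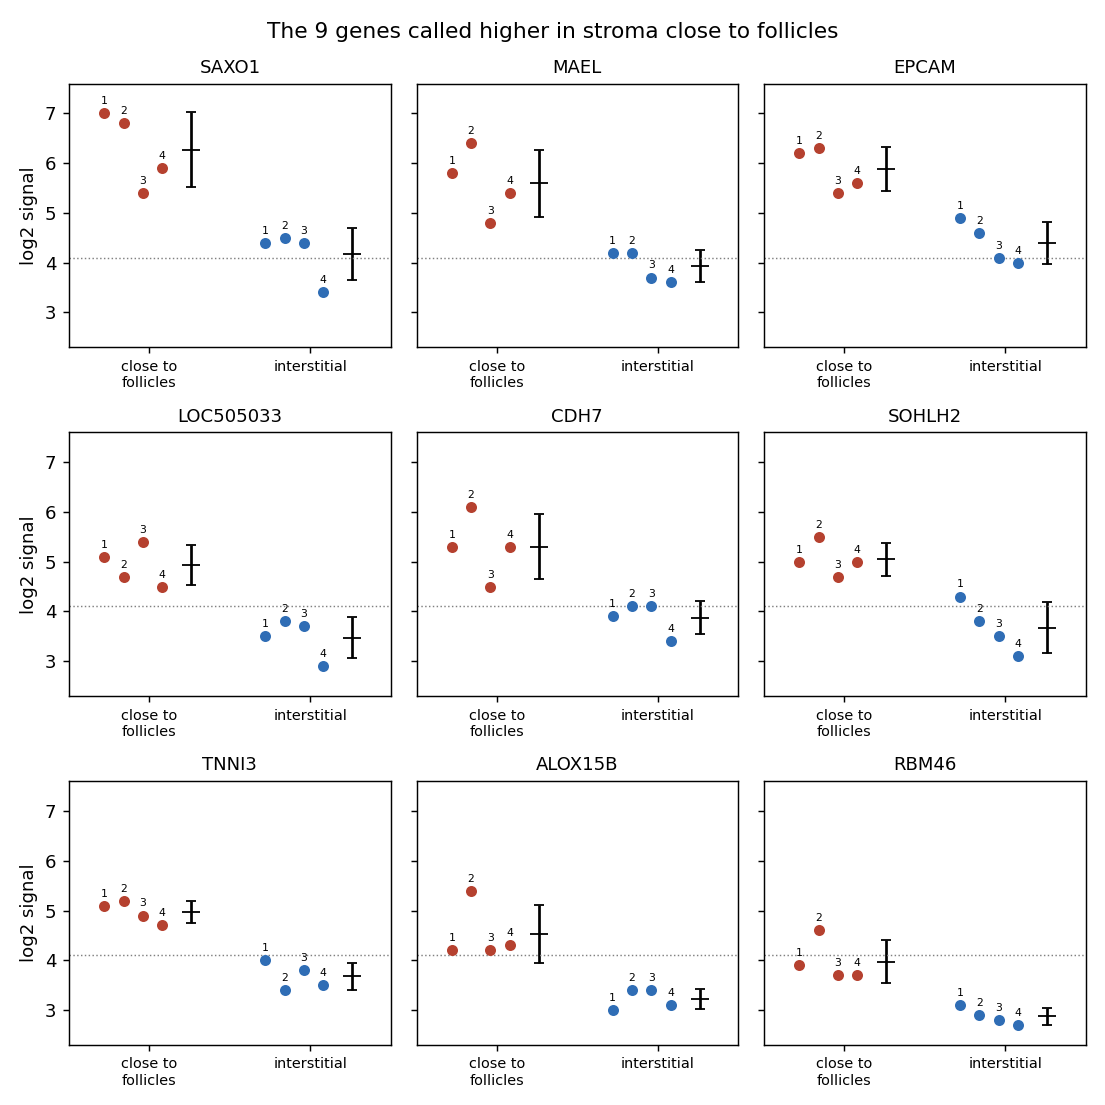
Log2 signal (vertical axis) of the 9 genes that passed, on each of the 4 arrays of stroma close to follicles (red) and of interstitial stroma (blue); digits are replicate numbers, bars the mean ± SD, and the dotted line the array median of 4.1. No gene overlaps between the compartments, and replicate 3 of stroma close to follicles is the lowest or shares the lowest value of its group in 7 of the 9.

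Of the genes that rose, MAEL, SOHLH2 and RBM46 are known from germ cells and SAXO1 from cilia and flagella. MAEL, which acts in the piRNA pathway that silences transposons in germ cells, stood at 5.8, 6.4, 4.8 and 5.4 in stroma close to follicles and at 4.2, 4.2, 3.7 and 3.6 in interstitial stroma. All 4 arrays of stroma close to follicles lay above all 4 of interstitial stroma, and the difference was 1.68 ± 0.28 (SE, adjusted p = 0.04). SOHLH2, a transcription factor needed for early oocyte growth in mice, stood at 5.0, 5.5, 4.7 and 5.0 in stroma close to follicles and at 4.3, 3.8, 3.5 and 3.1 in interstitial stroma (difference 1.38 ± 0.21, adjusted p = 0.035). RBM46, a germ cell RNA-binding protein, stood at 3.9, 4.6, 3.7 and 3.7 in stroma close to follicles and at 3.1, 2.9, 2.8 and 2.7 in interstitial stroma (difference 1.10 ± 0.18, adjusted p = 0.039). Apart from the second array of stroma close to follicles, its values lay below the array median. SAXO1, which stabilises microtubules, had the largest difference of the 9. It stood at 7.0, 6.8, 5.4 and 5.9 in stroma close to follicles and at 4.4, 4.5, 4.4 and 3.4 in interstitial stroma, a difference of 2.10 ± 0.33 (adjusted p = 0.035). In tunica albuginea and theca these 4 genes averaged between 2.57 and 3.42, below every mean of stroma close to follicles.

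EPCAM and CDH7 encode adhesion molecules of the cell surface. EPCAM, an adhesion protein of epithelia and of germ cells, stood at 6.2, 6.3, 5.4 and 5.6 in stroma close to follicles and at 4.9, 4.6, 4.1 and 4.0 in interstitial stroma, a difference of 1.48 ± 0.22 (adjusted p = 0.035). CDH7, a cadherin, stood at 5.3, 6.1, 4.5 and 5.3 in stroma close to follicles and at 3.9, 4.1, 4.1 and 3.4 in interstitial stroma, a difference of 1.43 ± 0.24 (adjusted p = 0.04). For both, stroma close to follicles lay clear of interstitial stroma on all arrays. EPCAM was the single called member among 20 measured markers of the surface epithelium, of which 14 lay below the array median in both compartments. Of the 20, 15 had a positive and 5 a negative difference, while 47.7% of all clusters were above 0. At an unadjusted p below 0.05, 3 were higher and 1 lower, beside 4.29% and 3.83% of all clusters. UPK1B differed by 1.25 (adjusted p = 0.4), DSP by 0.58 (adjusted p = 0.34) and LGALS3 by -0.48 (adjusted p = 0.54). DSP passed without replicate 3 of stroma close to follicles (0.78, adjusted p = 0.018). KRT18, KRT19 and CDH1, which mark epithelia, lay at 4.2 or below on every array of both compartments.

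TNNI3, ALOX15B and LOC505033 completed the 9. TNNI3, the inhibitory troponin subunit of heart muscle, counted here among markers of granulosa cells, stood at 5.1, 5.2, 4.9 and 4.7 in stroma close to follicles and at 4.0, 3.4, 3.8 and 3.5 in interstitial stroma (difference 1.30 ± 0.21, adjusted p = 0.035). It was the 1 gene of the 9 with a high level in theca, 8.17 ± 0.34 (SD, n = 6), against 3.02 in tunica albuginea. ALOX15B, a lipoxygenase that oxygenates arachidonic acid, stood at 4.2, 5.4, 4.2 and 4.3 in stroma close to follicles and at 3.0, 3.4, 3.4 and 3.1 in interstitial stroma (difference 1.30 ± 0.21, adjusted p = 0.039). Its second array in stroma close to follicles lay apart from the other 3. LOC505033, named here by its identifier, stood at 5.1, 4.7, 5.4 and 4.5 in stroma close to follicles and at 3.5, 3.8, 3.7 and 2.9 in interstitial stroma (difference 1.45 ± 0.22, adjusted p = 0.035), and the third array of stroma close to follicles was its highest.

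Just outside the threshold, 18 clusters with 1 gene symbol had positive and 6 negative differences at adjusted p-values between 0.05 and 0.1. Like the rest of the genes in this paragraph, they are given for where they lie against the threshold, after their values were seen. The positive ones included genes known from germ cells: BOLL, an RNA-binding protein of meiosis related to DAZL, differed by 1.28 (adjusted p = 0.069), MEIOC, a meiotic regulator, by 0.70 (adjusted p = 0.073) and TDRD10, a tudor domain protein, by 0.83 (adjusted p = 0.073). PHYHIPL had the largest difference among them, 1.75 ± 0.33 (adjusted p = 0.069). It stood at 6.6, 7.3, 5.3 and 6.0 in stroma close to follicles and at 5.0, 4.5, 4.6 and 4.1 in interstitial stroma, with no overlap. NELL1, a secreted protein with von Willebrand domains, differed by 0.73 (adjusted p = 0.054) and CBLN4, a secreted protein of synapses, by 1.25 (adjusted p = 0.056). All values of MEIOC and NELL1 in both compartments lay below the array median of 4.1. Others of the 18, such as MICAL2 (1.58) and ABCC2 (1.13), were not picked for a link to germ cells.

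**Figure D2:**
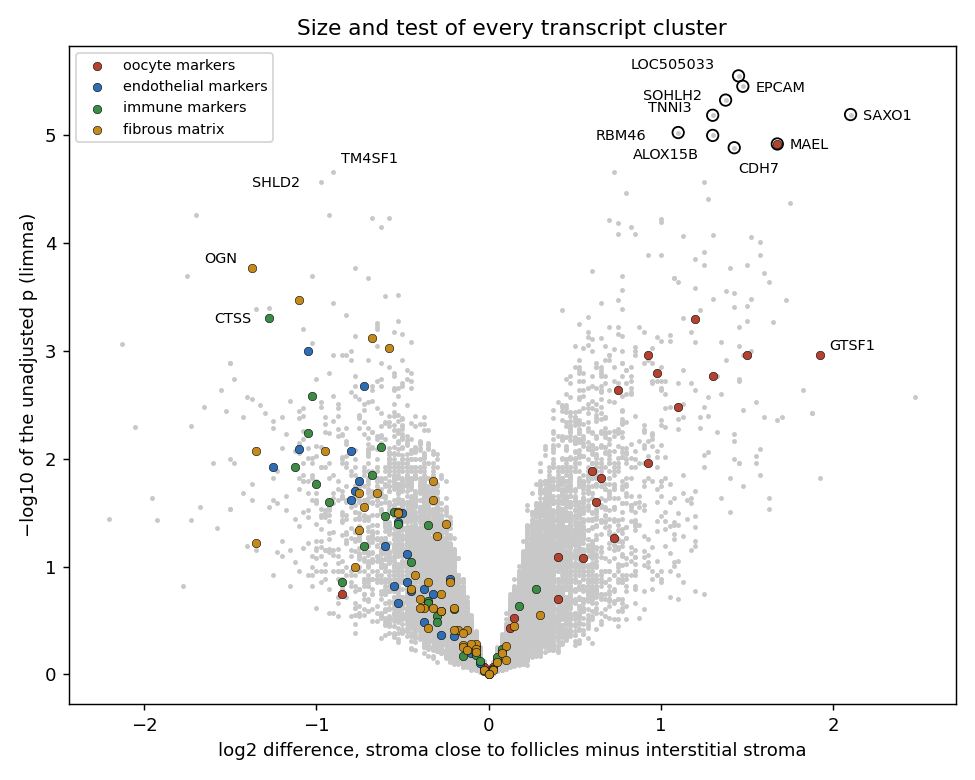
Log2 difference of each of the 26773 clusters, stroma close to follicles minus interstitial stroma (horizontal axis), against -log10 of the unadjusted limma p (vertical axis). Rings mark the 9 clusters that passed, all on the right; coloured points are members of 4 gene lists, with oocyte markers mostly above 0 and endothelial, immune and fibrous matrix genes mostly below 0.

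Markers of oocytes, the egg cells inside follicles, had higher signals in stroma close to follicles, 1 of them past the test. Of 22 measured oocyte markers, 20 had a positive difference and 13 had an unadjusted p below 0.05, all higher in stroma close to follicles, but MAEL alone passed after adjustment. Their median difference was 0.69, beside a median of 0 over all clusters. Of all clusters 47.7% were above 0 and 4.29% were higher at an unadjusted p below 0.05. The mean signal of the list was 4.96, 5.18, 4.10 and 4.28 in stroma close to follicles and 4.14, 4.00, 3.77 and 3.76 in interstitial stroma, against 3.18 to 3.58 in tunica albuginea and 3.08 to 3.43 in theca. Replicates 1 and 2 of stroma close to follicles were the highest by far, and replicate 3 lay within the range of interstitial stroma. The part of oocyte transcripts in the other differences was not tested. In tissue of this kind, a different number of cells of a type and a different amount of RNA per cell cannot be told apart.

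GTSF1, DAZL and ZP3 had the highest mean signals of the list in stroma close to follicles. GTSF1, a piRNA pathway protein of germ cells, stood at 8.6, 9.0, 6.2 and 7.5 in stroma close to follicles and at 6.3, 6.3, 5.8 and 5.2 in interstitial stroma (difference 1.93 ± 0.50, adjusted p = 0.22). DAZL, a translational regulator of germ cells, stood at 7.6, 8.0, 5.9 and 6.8 in stroma close to follicles and at 5.9, 6.4, 5.7 and 5.1 in interstitial stroma (difference 1.30 ± 0.35, adjusted p = 0.25). In both genes 3 arrays of stroma close to follicles lay above all of interstitial stroma, and replicate 3 lay among them. Interstitial stroma was itself above tunica albuginea and theca, where GTSF1 averaged 3.42 and 2.68. ZP3, a protein of the zona pellucida around the egg, stood at 6.5, 7.4, 4.7 and 5.8 in stroma close to follicles and at 5.0, 4.9, 4.2 and 4.3 in interstitial stroma (difference 1.50 ± 0.39, adjusted p = 0.22). KPNA7, an oocyte nuclear import receptor, was the other member without overlap, with 5.1, 6.0, 4.3 and 4.7 in stroma close to follicles and 4.2, 4.2, 3.8 and 3.1 in interstitial stroma (adjusted p = 0.17). Over all clusters 1.41% were higher without overlap, and 1.18% lower.

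Genes of other oocyte functions were lower in signal. DDX4, the germ cell RNA helicase, had a difference of 0.93, FIGLA, which switches on zona genes, 0.75, and TDRD1, a scaffold of the piRNA pathway, 1.10, with adjusted p-values between 0.22 and 0.31. GDF9, a growth factor that oocytes secrete, stood at 4.2, 4.6, 3.5 and 3.1 in stroma close to follicles and at 3.6, 3.1, 3.1 and 3.0 in interstitial stroma. BMP15, its partner, stood at 5.1, 5.0, 3.5 and 3.6 in stroma close to follicles and at 4.3, 4.1, 3.4 and 3.8 in interstitial stroma. Both were above the array median in replicates 1 and 2 of stroma close to follicles and below it in replicates 3 and 4. ZAR1, an oocyte RNA-binding protein, had a difference of -0.85 with overlapping compartments (adjusted p = 0.8), and 7 of the 22 markers lay below the array median in both compartments.

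**Figure D3:**
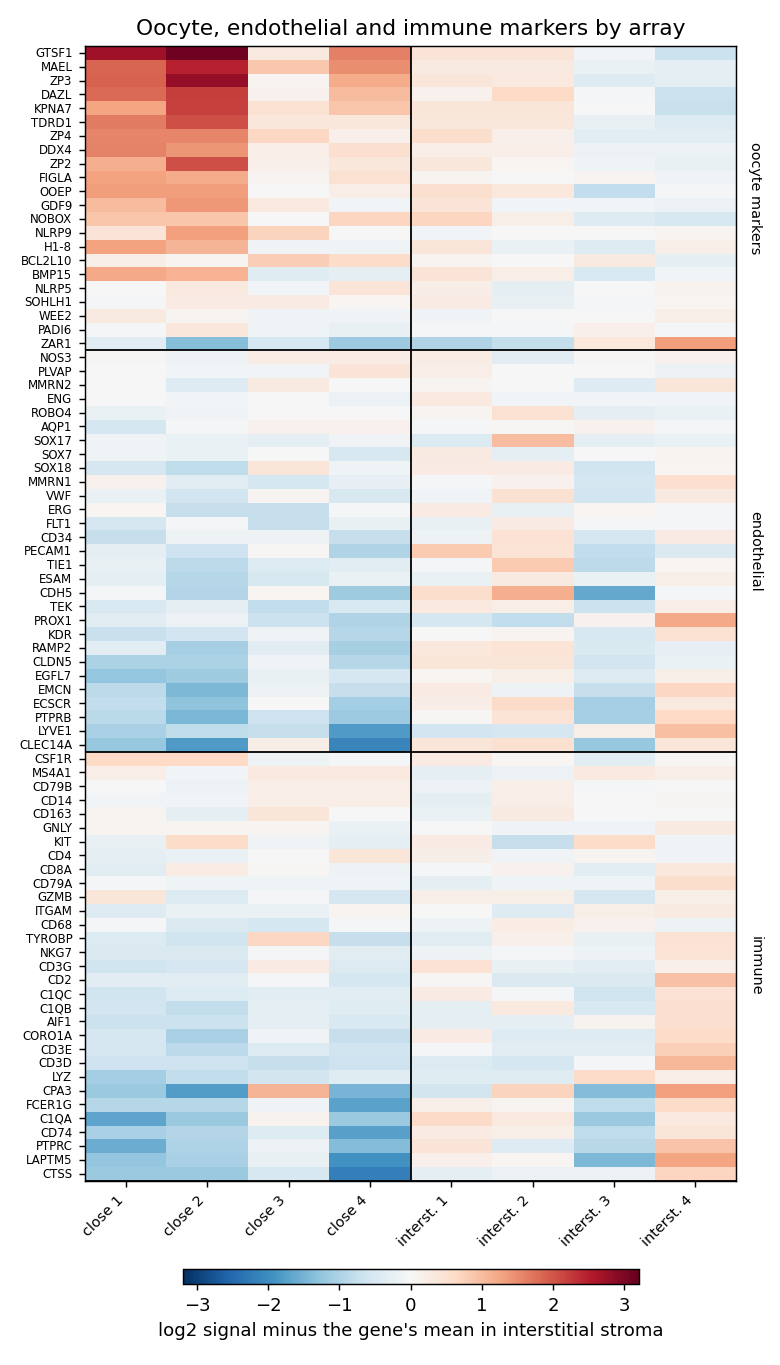
Log2 signal of each oocyte, endothelial and immune marker on each of the 8 arrays, minus the gene's mean in interstitial stroma (colour, red above and blue below). Oocyte markers are reddest in replicates 1 and 2 of stroma close to follicles; endothelial and immune markers are bluest in replicates 1, 2 and 4, and also blue in replicate 3 of interstitial stroma.

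Markers of granulosa cells, which surround the oocyte, had like list means in both compartments. Of 20 measured, TNNI3 was called, the median difference was -0.01, and the list mean was 4.78, 4.92, 4.74 and 4.85 in stroma close to follicles and 4.77, 4.73, 4.79 and 4.64 in interstitial stroma. CYP19A1, the aromatase of growing follicles, lay between 2.3 and 2.5 in stroma close to follicles and between 2.3 and 2.6 in interstitial stroma. FSHR, the follicle-stimulating hormone receptor, AMH and FOXL2, which mark granulosa cells, stood at 4.3 or below on every array of both compartments. INHA, the alpha subunit of inhibin, was the other marker whose compartments did not overlap, beside 1.41% of all clusters that were higher without overlap. It stood at 5.1, 5.7, 4.9 and 4.8 in stroma close to follicles and at 4.5, 3.9, 4.6 and 4.4 in interstitial stroma, a difference of 0.78 ± 0.24 that did not pass (adjusted p = 0.35). TNNI3 and INHA were also higher in theca than in tunica albuginea, by 5.14 and 3.77. Which cells of the dissected theca carried them was not tested.

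Genes of cell division leaned upward in stroma close to follicles, and none passed. Of 34 measured, 23 had a positive difference, 5 were higher and 1 lower at an unadjusted p below 0.05, and the median difference was 0.25. The shares over all clusters were 47.7% above 0, and 4.29% higher and 3.83% lower at that p. AURKA, a kinase of the spindle poles that oocytes also express, stood at 9.0, 9.4, 7.8 and 8.3 in stroma close to follicles and at 7.2, 7.6, 7.3 and 6.6 in interstitial stroma (difference 1.45 ± 0.40, adjusted p = 0.26). CCNB1, the mitotic and meiotic cyclin, stood at 5.6, 6.2, 5.5 and 5.0 in stroma close to follicles and at 4.7, 4.3, 4.4 and 4.1 in interstitial stroma (difference 1.20 ± 0.34, adjusted p = 0.27). For both, all arrays of stroma close to follicles were above all of interstitial stroma. Both genes and the oocyte list mean were highest on replicates 1 and 2 of stroma close to follicles. CCNB1 was higher on replicate 3 (5.5) than on replicate 4 (5.0), unlike that list mean. Whether oocytes carried these transcripts was not tested.

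The endothelial list, genes of blood and lymph vessel linings, had lower signals in stroma close to follicles, and none of its members passed. Of 29 measured markers 27 had a negative difference, 10 of them at an unadjusted p below 0.05, and the median was -0.48. Of all clusters 47.3% were below 0 and 3.83% were lower at that p. The list mean was 4.29, 4.08, 4.51 and 4.15 in stroma close to follicles and 4.81, 4.93, 4.26 and 4.90 in interstitial stroma, against 4.02 to 4.25 in tunica albuginea and 5.36 to 5.68 in theca. The third array of interstitial stroma was low and lay within the range of stroma close to follicles, and the other 3 lay above all of that range. CLEC14A, a lectin of endothelial cells, stood at 4.0, 3.4, 5.4 and 3.1 in stroma close to follicles and at 5.6, 5.7, 4.0 and 5.6 in interstitial stroma (difference -1.25 ± 0.45, adjusted p = 0.43). LYVE1, a hyaluronan receptor of lymph vessels and some macrophages, stood at 3.8, 4.0, 4.1 and 3.0 in stroma close to follicles and at 4.2, 4.3, 5.0 and 5.8 in interstitial stroma (difference -1.10 ± 0.37, adjusted p = 0.39). Of the endothelial list, LYVE1 was the 1 gene whose compartments did not overlap, beside 1.18% of all clusters that were lower without overlap. PTPRB, a phosphatase of vessel walls, had a difference of -1.05 (adjusted p = 0.22), which became -1.41 (adjusted p = 0.012) without the third array of interstitial stroma. Without that array 29 clusters were called, 17 of them lower, among them the endothelial genes MYCT1 (-2.08), ADGRF5 (-1.48) and NOSTRIN (-1.47), named after their values were seen. That array was the lowest of its group for this list, so these larger differences are not independent evidence.

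Pericyte and growth factor genes of vessels gave a mixed picture. RGS5, a marker of capillary pericytes, stood at 5.1, 4.8, 6.1 and 4.1 in stroma close to follicles and at 7.1, 7.1, 4.7 and 7.1 in interstitial stroma (difference -1.48 ± 0.52, adjusted p = 0.42). Here too the third array of each compartment lay toward the other compartment. Over all 21 measured genes of smooth muscle and pericytes the median difference was -0.05, with 2 lower and 0 higher at an unadjusted p below 0.05. At that p, 3.83% of all clusters were lower and 4.29% higher. Among 23 genes of VEGF and angiopoietin signalling the median was -0.10, with 3 lower and 0 higher. KDR, the main VEGF receptor, stood at 6.0, 6.1, 6.6 and 5.8 in stroma close to follicles and at 6.7, 6.8, 6.2 and 7.2 in interstitial stroma (adjusted p = 0.65).

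Immune markers showed the same direction. Of 31 measured, 25 had a negative difference, 12 of them at an unadjusted p below 0.05, none was called, and the median was -0.35. The shares over all clusters were 47.3% below 0 and 3.83% lower at that p. The list mean was 3.76, 3.75, 4.19 and 3.69 in stroma close to follicles and 4.23, 4.20, 3.96 and 4.68 in interstitial stroma, with the third array of stroma close to follicles above its group. CTSS, a lysosomal protease of antigen-presenting cells, stood at 5.9, 5.9, 6.6 and 4.9 in stroma close to follicles and at 6.8, 6.9, 6.9 and 7.8 in interstitial stroma. These did not overlap, and the difference was -1.28 ± 0.30 (adjusted p = 0.17), or -1.53 (adjusted p = 0.021) without the third array of stroma close to follicles. PTPRC, the pan-leukocyte antigen CD45, had a difference of -1.05 (adjusted p = 0.36), LAPTM5, a lysosomal protein of blood cells, -1.13 (adjusted p = 0.43) and CD74, the invariant chain of antigen presentation, -1.03 (adjusted p = 0.28). Their compartments overlapped, and 18 of the 31 markers lay below the array median in both. The 19 genes of the complement system, which tags cells for removal, had a median of -0.38 with 16 negative. That median was -0.23 without replicate 3 of stroma close to follicles and -0.18 without replicate 4 of interstitial stroma. The 27 chemokine genes had a median of -0.10 with 18 negative, and none of either list passed. CCL2, a chemokine that draws monocytes, stood at 4.0, 3.2, 3.6 and 5.0 in stroma close to follicles and at 5.5, 5.3, 3.5 and 8.4 in interstitial stroma (adjusted p = 0.56), with the fourth array of interstitial stroma far above the rest.

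Genes of the fibrous matrix, the collagens and associated proteins that stiffen stroma, leaned the same way by smaller amounts. Of 51 measured, 42 had a negative difference, 15 of them at an unadjusted p below 0.05 and 5 without overlap, and none was called. Of all clusters 47.3% were below 0, 3.83% were lower at that p and 1.18% were lower without overlap. The median difference of the list was -0.28. The list mean was 6.20, 6.07, 6.16 and 6.27 in stroma close to follicles and 6.31, 6.65, 6.45 and 6.70 in interstitial stroma, against 6.91 to 7.21 in tunica albuginea. All 4 arrays of stroma close to follicles, the third included, lay below those of interstitial stroma, and both lay below tunica albuginea.

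**Figure D4:**
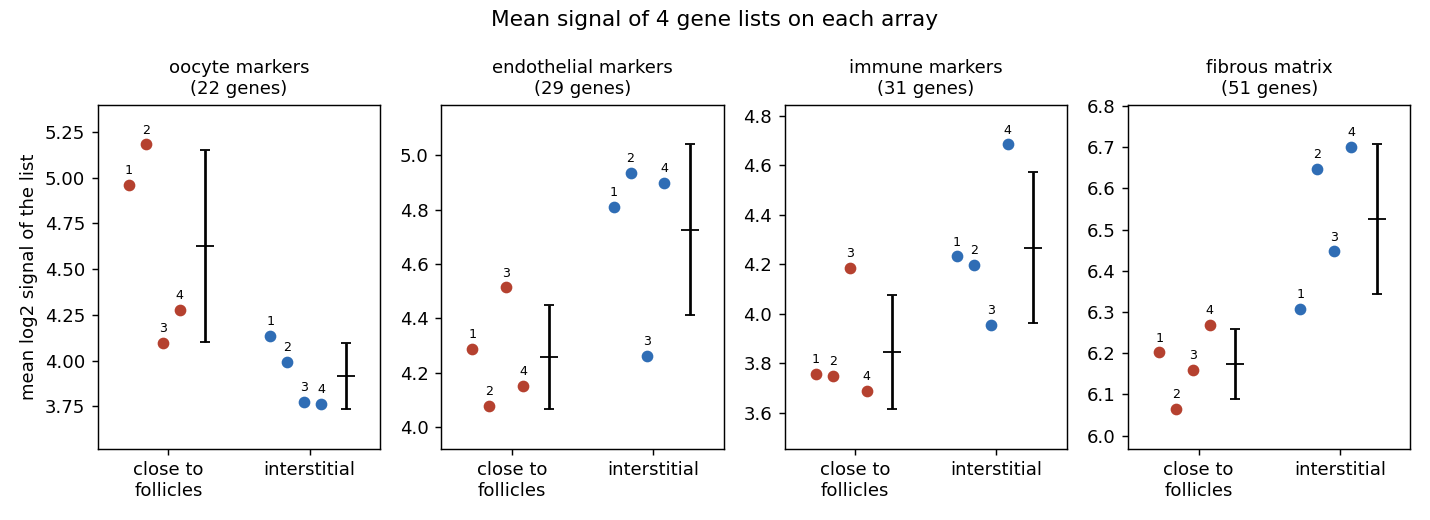
Mean log2 signal (vertical axes, with different ranges that do not start at 0) of 4 gene lists on each array of stroma close to follicles (red) and of interstitial stroma (blue); digits are replicate numbers and bars the mean ± SD. Fibrous matrix means are lower on all 4 arrays of stroma close to follicles, oocyte means are higher except on replicate 3, and endothelial and immune means overlap through replicate 3 of each compartment.

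OGN, the small matrix proteoglycan osteoglycin, stood at 4.6, 4.3, 5.4 and 5.3 in stroma close to follicles and at 5.7, 6.7, 6.3 and 6.4 in interstitial stroma (difference -1.38 ± 0.29, adjusted p = 0.11). Without the third array of stroma close to follicles its difference was -1.54 (adjusted p = 0.031). ASPN, the related asporin, stood at 4.4, 4.8, 5.0 and 4.6 in stroma close to follicles and at 5.6, 5.9, 6.0 and 5.7 in interstitial stroma (difference -1.10 ± 0.25, adjusted p = 0.14). Neither gene overlapped between the compartments, and both had their highest mean in theca, 9.50 for OGN and 9.40 for ASPN. TNC, the adhesion-modulating tenascin C, stood at 4.0, 4.1, 4.5 and 5.7 in stroma close to follicles and at 4.4, 6.4, 5.9 and 7.0 in interstitial stroma (difference -1.35 ± 0.46, adjusted p = 0.39). MFAP5, a microfibril protein, had a difference of -1.35 (adjusted p = 0.63). The main structural genes, added after their values were seen, had smaller differences: FN1 (fibronectin) -0.68 (adjusted p = 0.2), COL1A1 -0.65 (adjusted p = 0.49), COL3A1 -0.53 (adjusted p = 0.54), LUM (lumican) -0.13 (adjusted p = 0.9) and DCN -0.08 (adjusted p = 0.93).

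The basement membrane list, proteins of the sheet under epithelia and around vessels, had 23 measured genes with a median of -0.18, 19 of them negative. LAMA4, a laminin chain of vessel walls, stood at 4.2, 3.9, 4.8 and 5.1 in stroma close to follicles and at 5.6, 6.6, 4.9 and 6.3 in interstitial stroma (difference -1.35 ± 0.31, adjusted p = 0.16). COL4A3, a type IV collagen chain, went the other way, with 6.2, 6.0, 4.7 and 5.8 in stroma close to follicles and 5.2, 4.5, 4.8 and 4.1 in interstitial stroma (difference 1.03 ± 0.35, adjusted p = 0.41). The compartments overlapped for both. The 34 proteases and inhibitors that remodel matrix had a median of -0.10, with 1 higher and 4 lower at an unadjusted p below 0.05. At that p, 4.29% of all clusters were higher and 3.83% lower. PLAT, the tissue plasminogen activator, had a difference of -0.55 (adjusted p = 0.53).

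Besides OGN, 7 genes had the lowest p in the negative direction when the brightest cluster stood for each gene, and none passed. Of these genes, the compartments overlapped for CLEC2D alone. CLEC2D, a lectin-like ligand of a natural killer cell receptor, had the largest negative difference of them, -1.75 ± 0.38 (adjusted p = 0.11), with 4.1, 3.3, 4.2 and 3.0 in stroma close to follicles and 6.3, 5.4, 4.2 and 5.7 in interstitial stroma. It passed without replicate 3 of stroma close to follicles (-1.93, adjusted p = 0.038) and without replicate 3 of interstitial stroma (-2.15, adjusted p = 0.022). TM4SF1, a membrane protein of endothelial and other cells, stood at 6.4, 6.1, 6.3 and 6.6 in stroma close to follicles and at 7.3, 7.2, 7.1 and 7.4 in interstitial stroma (difference -0.90 ± 0.16, adjusted p = 0.054). MPEG1, a pore-forming protein of macrophages, stood at 2.9, 2.9, 3.0 and 2.6 in stroma close to follicles and at 3.8, 3.6, 3.7 and 4.0 in interstitial stroma (adjusted p = 0.073), below the array median throughout. SHLD2, part of the shieldin complex of DNA repair, stood at 3.8, 3.7, 3.6 and 3.9 in stroma close to follicles and at 4.7, 5.2, 4.3 and 4.7 in interstitial stroma (adjusted p = 0.056). MFAP3, a microfibril-associated protein, had a difference of -0.58 (adjusted p = 0.073). LOC100295797 had a difference of -0.68 (adjusted p = 0.073) and TM6SF1, a transmembrane protein, -0.78 (adjusted p = 0.11). A cluster of TGS1 that was not the brightest of its gene differed by -0.63 without overlap (adjusted p = 0.073). When 1 cluster stood for each of 18010 named genes, 29 genes passed, and 5 of these were lower: TM4SF1, MPEG1, SHLD2, LOC100295797 and MFAP3.

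None of the 21 measured genes of steroid synthesis, the main work of the theca, passed. The median difference was 0, and 13 lay below the array median in both compartments. The values of CYP17A1, LHCGR and HSD3B1, looked at as the genes of theca function after they were seen, were at the low end of each array. CYP17A1, the enzyme of androgen synthesis, stood at 3.2, 3.6, 3.3 and 3.7 in stroma close to follicles and at 3.2, 3.5, 3.6 and 3.4 in interstitial stroma, against a mean of 9.10 in theca. The difference was 0.03 with a 95% interval of -1.01 to 1.06. LHCGR, the luteinising hormone receptor, had a difference of -0.18 (95% interval -0.58 to 0.23), INSL3, the peptide hormone of theca, 0.15 (-0.30 to 0.60) and HSD3B1, which makes progesterone, 0.10 (-0.35 to 0.55). CYP11A1, which takes the first step from cholesterol, stood at 3.6, 4.0, 3.0 and 2.8 in stroma close to follicles and at 2.5, 2.4, 3.1 and 2.7 in interstitial stroma (difference 0.68 ± 0.30, adjusted p = 0.58), all below the array median, against 10.02 in theca. The 17 genes of cholesterol synthesis and uptake had a median of 0.08, and 0 had an unadjusted p below 0.05 in either direction.

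GSTA1, a glutathione transferase of the alpha class, had the largest positive difference among list genes that were also far higher in theca than in tunica albuginea. It stood at 6.2, 5.6, 5.8 and 7.0 in stroma close to follicles and at 5.4, 4.6, 5.1 and 3.8 in interstitial stroma, against means of 2.65 in tunica albuginea and 10.97 in theca. The compartments did not overlap, replicate 3 included, but the difference of 1.43 ± 0.32 did not pass (adjusted p = 0.14). The 27 measured genes of glutathione metabolism and detoxification had a median of -0.03.

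Hedgehog signalling, by which granulosa cells are known to instruct theca precursors in mice, gave no call among 15 measured genes, with a median of -0.10. PTCH1, the receptor that the pathway itself induces, stood at 6.3, 5.9, 5.0 and 6.4 in stroma close to follicles and at 6.0, 6.0, 5.9 and 5.7 in interstitial stroma (difference 0.00, 95% interval -0.51 to 0.51), against 9.07 in theca. GLI1, the transcription factor it activates, had a difference of -0.38 (adjusted p = 0.67) and HHIP, its secreted inhibitor, 0.15 (adjusted p = 0.92). Theca means of all 3 were above both kinds of stroma. Among 27 regulators of gonads and theca precursors the median was -0.03, and LHX2, a homeobox factor, had the lowest p with a difference of 0.55 (adjusted p = 0.21). It did not overlap between the compartments. NR5A1, the factor that drives steroid enzymes, had a difference of 0.03 (95% interval -0.47 to 0.52).

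Other signalling lists had medians between -0.13 and 0.05 and no call with all arrays. HEY2, a transcriptional repressor that Notch signals induce, stood at 5.2, 5.5, 3.6 and 4.5 in stroma close to follicles and at 3.5, 3.6, 3.1 and 3.4 in interstitial stroma (difference 1.30 ± 0.29, adjusted p = 0.14). Replicate 3 sat at the upper edge of interstitial stroma, and without it the difference was 1.67 (adjusted p = 0.0033). The 17 Notch genes as a whole had a median of -0.08. IGF2BP3 and IGF2BP2, which bind mRNAs of the insulin-like growth factor system, had differences of 1.20 (adjusted p = 0.21) and 0.78 (adjusted p = 0.32), and without replicate 3 of 1.50 (adjusted p = 0.016) and 1.01 (adjusted p = 0.038). IGF1 itself stood at 6.4, 6.9, 7.1 and 6.3 in stroma close to follicles and at 7.5, 7.8, 6.0 and 7.7 in interstitial stroma (adjusted p = 0.79), with the third array of interstitial stroma below all others. The 19 genes of that system had a median of 0.05.

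Of 42 WNT genes 5 were higher and 1 lower at an unadjusted p below 0.05, and the median was 0.01. The shares over all clusters at that p were 4.29% higher and 3.83% lower. FZD10, a WNT receptor, stood at 3.1, 3.2, 3.8 and 5.0 in stroma close to follicles and at 2.7, 2.9, 2.9 and 2.6 in interstitial stroma (adjusted p = 0.27). RSPO2, a secreted enhancer of WNT signals that mouse oocytes make, stood at 3.6, 5.6, 3.0 and 3.8 in stroma close to follicles and at 3.1, 3.0, 3.0 and 3.1 in interstitial stroma (adjusted p = 0.45). FZD10 did not overlap between the compartments, beside 1.41% of all clusters that were higher without overlap, and was highest on replicate 4. RSPO2 overlapped, and replicate 2 carried most of its difference. The 47 genes of TGF-beta and BMP signalling had a median of -0.08, with 2 higher and 4 lower, and the 32 of FGF, PDGF and KIT signalling a median of -0.13, with 2 higher and 3 lower. HGF, a growth factor that stromal cells send to epithelia, stood at 4.7, 5.0, 5.9 and 4.9 in stroma close to follicles and at 5.1, 6.4, 6.6 and 6.7 in interstitial stroma (adjusted p = 0.35). KITLG, the ligand of KIT that supports oocyte growth, had a difference of -0.65 (adjusted p = 0.43).

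The 40 axon guidance genes, whose products also steer vessels and migrating cells, had a median of -0.08, with 3 higher and 2 lower without overlap. Of all clusters 1.41% were higher and 1.18% lower without overlap. NTN4, a netrin, stood at 5.3, 5.0, 4.5 and 4.7 in stroma close to follicles and at 4.2, 4.2, 4.4 and 3.8 in interstitial stroma (adjusted p = 0.26). SLIT2, a secreted repellent, stood at 6.5, 6.4, 6.7 and 6.4 in stroma close to follicles and at 7.0, 7.2, 7.5 and 7.2 in interstitial stroma (adjusted p = 0.43). These 2 genes lay on opposite sides without overlap. Among 18 prostaglandin genes, with a median of -0.13, PTGES, the enzyme that makes prostaglandin E, stood at 7.1, 6.9, 6.3 and 7.1 in stroma close to follicles and at 6.1, 4.4, 6.8 and 5.6 in interstitial stroma (adjusted p = 0.33).

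The remaining lists had medians near 0. These were 0.03 for 11 steroid hormone receptors, -0.10 for 23 retinoid genes, -0.05 for 34 immediate early and stress genes, -0.04 for 56 genes of oxidative phosphorylation and -0.03 for 31 ribosomal proteins. Markers of surface epithelium had a median of 0.09, of nerve and Schwann cells -0.13 (11 genes) and of red blood cells 0.14 (10 genes). Apart from EPCAM none of these genes was called with all arrays. PGR, the progesterone receptor, lay between 4.8 and 5.2 in stroma close to follicles and between 5.0 and 5.9 in interstitial stroma, a difference of -0.48 (adjusted p = 0.54).

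Genes that separate theca from tunica albuginea gave a wider view of the question whether stroma beside follicles stood nearer to theca. Theca and tunica albuginea share no array with the 2 kinds of stroma, and theca also differed from tunica albuginea in dissection, pooling and RNA kit, which cannot be told apart from compartment. At an adjusted p below 0.05 and a log2 difference of at least 2, 382 clusters (1.43%) were higher in theca and 235 (0.878%) higher in tunica albuginea. In stroma close to follicles against interstitial stroma, the 382 theca clusters had a median difference of 0.05 (quartiles -0.30 and 0.38), with 51.8% above 0 and 45% below. The 235 tunica clusters had a median of -0.03, with 44.7% above 0 and 51.1% below. Both medians lay close to the 0 of all clusters. At an unadjusted p below 0.05, 31 of the theca clusters were higher (8.12%) and 36 lower (9.42%) in stroma close to follicles, beside 4.29% and 3.83% of all clusters, and TNNI3 was the single one called. Without replicate 3 of stroma close to follicles 53 of the theca clusters were higher and 38 lower at that p. In the same fit 1409 of all 26773 clusters were higher and 1255 lower, against 1149 and 1026 with all arrays. No tunica cluster was called, with 16 higher (6.81%) and 12 lower (5.11%) at an unadjusted p below 0.05.

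**Figure D5:**
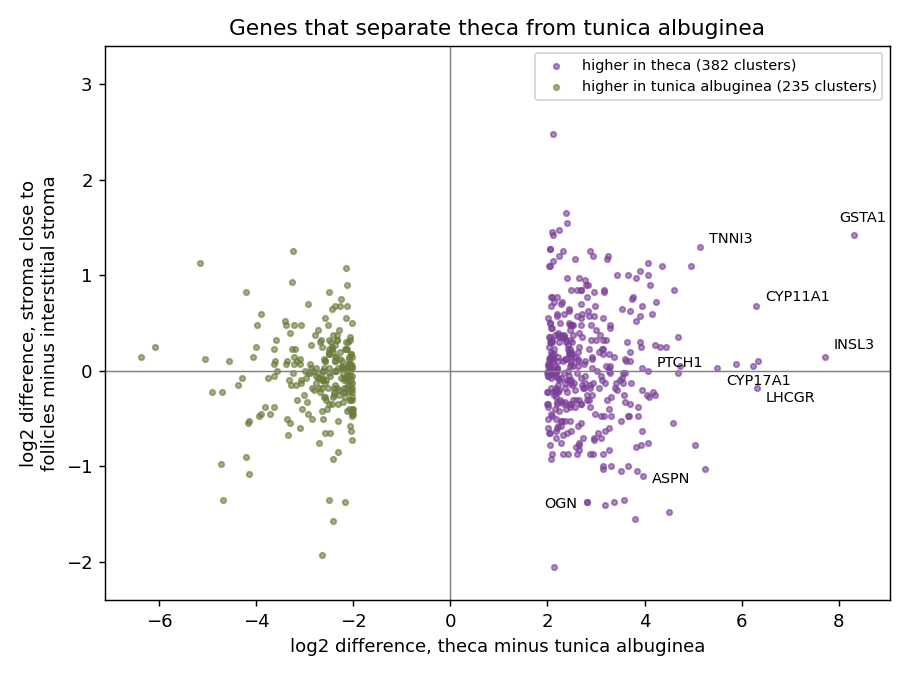
Log2 difference between stroma close to follicles and interstitial stroma (vertical axis) of the clusters that separate theca from tunica albuginea by at least 2 on the log2 scale (horizontal axis, theca minus tunica albuginea). Both clouds centre near 0 on the vertical axis, with medians of 0.05 for the 382 theca clusters and -0.03 for the 235 tunica clusters.

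Without the third array of stroma close to follicles, 152 clusters passed (0.568%), of which 122 were higher (0.456%) and 30 lower (0.112%) in stroma close to follicles, and all 9 named above were among them. That array was the one nearest to interstitial stroma in expression, so the larger number is not independent evidence, and the genes that follow were named after their values were seen. Oocyte markers made up 7 of the higher calls: GTSF1 (2.47), ZP3 (1.97), MAEL (1.94), DAZL (1.69), KPNA7 (1.44), DDX4 (1.17) and FIGLA (0.98). Outside the list, NPM2, a histone chaperone of eggs, was higher in the same fit by 1.79 (adjusted p = 0.0067), LHX8, a homeobox factor of oocyte growth, by 1.44 (adjusted p = 0.019) and BOLL by 1.43 (adjusted p = 0.011). NPM2 stood at 7.6, 8.1 and 6.4 on the other arrays of stroma close to follicles and at 5.6, 5.6, 5.7 and 5.4 in interstitial stroma, with 5.9 on the array left out. EYA1, a transcriptional co-activator of organ formation, was higher by 2.18 (adjusted p = 0.0057).

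Of the immune list, CTSS was the 1 lower call without that array, which was also the highest of its group for the list mean. CD52, a surface glycoprotein of lymphocytes, stood at 3.6, 4.2 and 3.5 in stroma close to follicles and at 5.9, 5.5, 5.3 and 6.5 in interstitial stroma (difference -2.03, adjusted p = 0.0033). The array left out had 6.0, within the range of interstitial stroma. RAC2, a small GTPase of blood cells, differed by -1.26 (adjusted p = 0.04), GMFG, an actin regulator of leukocytes, by -1.55 (adjusted p = 0.025) and CTSS by -1.53 (adjusted p = 0.021). BRB, a ribonuclease of cattle, had the largest negative difference (-2.13, adjusted p = 0.038). HAPLN1, which links hyaluronan to proteoglycans, differed by -1.30 (adjusted p = 0.033), and OGN was the 1 gene of the fibrous matrix list among these calls.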

How the data were processed

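Total RNA of the laser-captured tissue was extracted with a kit for very small samples, amplified from picogram amounts with a whole-transcriptome system and labelled with biotin for single-colour arrays, per the labels' protocols. The authors deposited log2 signals made with RMA and Partek 6.5, per the submitters' processing notes; the values run from 1 to 13.2 with 1 decimal. RMA's quantile step, which sets all arrays to like distributions (median 4.1 on every array), hides a shift common to most genes. Depth is not a measure of arrays, and their number limits the precision. The table gives no detection call, and the array's genome build is not given in the sources used here.

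Groups came from the sample titles; a further label that calls every sample thecal tissue was not used. Differences were tested on the deposited log2 values with limma 3.58.1 in R 4.3.3, fitting a mean for each of the 4 compartments to all 18 arrays, with moderated variances (eBayes), two-sided p-values and Benjamini-Hochberg adjustment over 26773 clusters; the single-animal theca arrays therefore shared in the spread. The scripts were tested on simulated data. Of 100 true differences of 1 on the log2 scale 70 were called, and of 100 of 2, 93. The same fit made 18 false calls. The simulated arrays had independent normal noise, with the same spread in every compartment. None was made to lean toward another compartment, as the third array of stroma close to follicles does. These counts therefore do not give the power of the test on the real arrays. Symbols came from the array's annotation table (18457 clusters with 1 symbol, 688 with several, 7628 with no entry), and for 401 of 18010 genes with several clusters the brightest stood for the gene. Overlapping or near-identical genes were not resolved.

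The comparison, 32 gene lists with 910 genes (825 measured) and the tests were chosen with earlier results of these data known. Named genes are all that passed (up to 15 a direction), filled up to 8 a direction by lowest p, every called member and up to 4 members of largest difference of each list, and cell type markers; others are named as chosen after their values were seen. Alternatives were the arrays in the fit, a replicate block, removal of the 40% dimmest clusters, a trended robust fit, array weights, scaling to the 75th percentile, 1 cluster per gene and leaving out each array. A fit of the laser-captured arrays without 1 array was added after seeing the data.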

Additional observations from a re-analysis of the deposited data

Results flagged for a closer look

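In 25 of 342 sets of 4 arrays tested (278 of them single genes), 1 array lay far from the other 3 of its compartment; chance alone flags about 5% of such sets. Among genes of stroma close to follicles these were S100B in replicate 1 (5.1), ALOX15B in replicate 2 (5.4) and, in replicate 3, SOX10 (3.1) and SRD5A3 (5.3). List means far from their group in stroma close to follicles were those of retinoid genes in replicate 1 (4.38), smooth muscle and pericyte markers in replicate 1 (6.42), chemokines in replicate 3 (4.0), immune markers in replicate 3 (4.19) and ribosomal proteins in replicate 4 (10.2).

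In interstitial stroma, replicate 3 lay apart for C1QA (2.6), CLEC14A (4.0), RGS5 (4.7), RARRES2 (6.9), IGF1 (6.0), CD74 (6.7), TEK (4.1) and KLF4 (4.3). Replicate 1 lay apart for GDF9 (3.6), and replicate 2 for DHCR7 (4.5) and TCF21 (9.1). Replicate 4 lay apart for JUN (8.4), CTSS (7.8) and SAXO1 (3.4), and for the list means of immediate early and stress genes (6.39) and cell cycle genes (4.63).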

How the results depend on the processing

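The count of called clusters, 9 in the main analysis and all at least 2-fold, moved with most settings. It was 0 with only the 12 laser-captured arrays (lowest adjusted p 0.2) and 0 with only the 8 stroma arrays (lowest adjusted p 0.37), with 2069 and 2083 clusters at an unadjusted p below 0.05 in limma. It was 3 of 16056 without the 40% dimmest clusters (EPCAM, TNNI3 and SAXO1, all at least 2-fold, with 4 of the 9 genes tested), 14 with a trended robust fit (11 at least 2-fold), 10 with array weights, 10 after scaling to the 75th percentile (9 higher and 1 lower, which shifted the median of all clusters by 0.03) and 29 of 18010 with 1 cluster per gene (17 at least 2-fold). Fewer clusters were tested in the first and last of these. Leaving out 1 array gave 0 to 152 calls, and 0 to 103 of at least 2-fold. The laser-captured arrays without replicate 3 of stroma close to follicles, a setting chosen after seeing the data, gave 24 calls, all at least 2-fold, 22 higher and 2 lower, with EPCAM, CDH7, MAEL and SAXO1 among them. The cause of these moves was not tested. With the replicate block over all 18 arrays 5 clusters were called (EPCAM, LOC505033, TNNI3, MAEL and SAXO1, all at least 2-fold) and with the replicate block on the 8 arrays 0 (lowest adjusted p 0.44; 1997 at an unadjusted p below 0.05). Arrays with the same replicate number deviated from their group means with correlations of 0.004, -0.008, -0.037 and -0.003. Those of arrays with different numbers ran from -0.073 to 0.078. Both lie near 0, so they cannot show whether pools with the same number shared animals. No called value changed direction, while list medians near 0 changed sign, such as that of granulosa markers (-0.01, and 0.06 without replicate 3 of stroma close to follicles). Of the comparisons of named genes with their main value, 2358 stayed on their side of the threshold, 32 passed newly and 83 no longer passed, and of the list medians 568 stayed within the spread and 8 moved.

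Signals at or below the array median of 4.1 can be background. The replicates are pools of unknown size, so the spread between them is not known to be that between animals, and values with steps of 0.1 limit small differences.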
